A study of Mus musculus with 4 samples.

Results

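Imprinted genes are expressed mainly from the copy inherited from one parent. The measurements below cover 10 of them in cultured primary mouse chondrocytes, the resident cells of cartilage: Peg3, Usp29 and Zim1 of the Peg3 domain, and Plagl1, H19, Mest, Dlk1, Meg3, Grb10 and Ndn from 6 other loci. They were taken by symbol from a table of 25239 gene symbols, and all 10 were present and passed the filter on low counts that left 15522 genes for testing. The 10 were chosen with the difference between genotypes in these same libraries in view, so their differences, intervals and counts past a threshold are given as a description, and nothing is supported with them. RNA-seq of poly(A) RNA was done on 2 control libraries, from Tiki2 fl/fl mice, and on 2 conditional knockout (cKO) libraries, from Tiki2 fl/fl mice that also carry Col2a1-Cre/ERT, a Cre recombinase driven by the promoter of the cartilage collagen gene and active only with a tamoxifen compound. All 4 cultures carry the floxed alleles and received 4-hydroxytamoxifen. The study asks how these cells change when Tiki2, a protease at the cell membrane that inactivates Wnt proteins and whose gene symbol is Trabd2b, is lost.

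Total counts lay between 66750140 and 78873054 per library. Trabd2b was still expressed in cKO, at 292 and 363 CPM (counts scaled to a library of 1000000) against 436 and 415 CPM in the controls. The log2 fold change was -0.38, with an edgeR adjusted p of 0.148. Counts per gene do not separate transcripts with and without the floxed part. The Cre is present in the cKO libraries alone, so its own effect and that of losing Tiki2 cannot be told apart. In control replicate 1, Xist, which coats the silent X chromosome of female cells, had 112185 counts and the Y-linked Ddx3y had 0, while the other libraries had at most 171 and at least 11073. Values with this library left out are therefore given beside the results of the Peg3 domain. Separate animals or cultures are not stated for the replicates, and p-values then reflect the spread between these samples alone. The labels give no age of the animals. The chondrocyte markers were present: 10 markers summed to 22622 and 26524.5 CPM in the controls, in the order of the replicate numbers, against 12758 and 9271 CPM in cKO. All pairs of values below follow that order.

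The parental mark is a stretch of DNA methylation set in the egg or sperm, kept in the body's cells by DNA methyltransferases and by zinc-finger proteins that bind the marked copy, and read by genes over a domain. Many imprinted genes act on growth, and several of them are known to be high in fetal and young tissues and to decline after birth. The Peg3 domain holds genes of both kinds: Peg3 and Usp29 are expressed from the paternal copy and Zim1 from the maternal one. Gene counts do not separate the copies, so the values below are totals over both.

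Peg3 and Usp29 are divergent genes that share 1 promoter region, and Zim1 has its own. The RefSeq starts of Peg3 (minus strand) and Usp29 (plus strand) lie 164 bases apart on chromosome 7 of GRCm38.p6, so a single window of 300 bases holds both starts. Windows of this kind, 250 bases before to 50 after a start, were found in RefSeq for 9 of the 10 genes; H19 was not among them. The sequences shown are those of the 3 Peg3-domain genes, of Plagl1, a gene also lower in cKO, and of Ndn, a gene that was not lower, each 5′ to 3′ on the strand of the gene named first, with motif matches in capitals. The motifs searched on both strands were TGCCGC, the core bound by the imprint-keeping protein ZFP57, GCCATNTT, bound by YY1, and TGACGTCA, bound by factors of the CREB family; none of the 3 is part of another.
Usp29 and Peg3, chr7:6730333-6730632, plus strand: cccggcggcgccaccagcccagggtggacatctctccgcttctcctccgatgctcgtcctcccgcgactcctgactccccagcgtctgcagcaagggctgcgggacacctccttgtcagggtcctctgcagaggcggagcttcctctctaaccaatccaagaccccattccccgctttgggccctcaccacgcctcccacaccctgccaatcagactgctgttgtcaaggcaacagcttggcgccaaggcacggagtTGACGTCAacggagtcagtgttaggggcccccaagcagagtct
Zim1, chr7:6696383-6696682, minus strand: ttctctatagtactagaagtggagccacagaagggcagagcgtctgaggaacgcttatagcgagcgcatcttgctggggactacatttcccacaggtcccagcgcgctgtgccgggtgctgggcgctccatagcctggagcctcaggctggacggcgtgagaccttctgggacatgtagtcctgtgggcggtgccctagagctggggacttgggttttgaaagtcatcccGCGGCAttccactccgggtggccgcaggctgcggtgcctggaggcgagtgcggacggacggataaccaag
Plagl1, chr10:13090582-13090881, plus strand: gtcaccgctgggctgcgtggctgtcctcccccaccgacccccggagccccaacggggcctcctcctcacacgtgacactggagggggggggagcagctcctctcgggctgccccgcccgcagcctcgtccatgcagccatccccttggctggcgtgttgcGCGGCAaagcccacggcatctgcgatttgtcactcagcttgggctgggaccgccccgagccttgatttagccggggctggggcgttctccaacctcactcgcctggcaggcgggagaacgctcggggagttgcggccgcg
Ndn, chr7:62348027-62348326, plus strand: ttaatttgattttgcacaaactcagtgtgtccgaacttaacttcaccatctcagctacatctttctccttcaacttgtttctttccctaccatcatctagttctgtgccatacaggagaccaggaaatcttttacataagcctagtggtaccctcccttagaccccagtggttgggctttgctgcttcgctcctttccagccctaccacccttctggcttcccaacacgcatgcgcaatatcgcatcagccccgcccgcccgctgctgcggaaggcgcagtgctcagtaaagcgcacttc
The shared Usp29 and Peg3 window held 1 TGACGTCA, found in 1.79% of all 32851 promoter windows, and 17 CpG pairs, against a median of 7 over all windows. Zim1 and Plagl1 each held 1 TGCCGC or its complement, found in 11.6% of windows, with 20 and 26 CpG pairs. Ndn held none of the motifs and 11 CpG pairs, and GCCATNTT, found in 6.05% of windows, was in none of the 4. Among the windows not shown, Meg3, higher in cKO, held 1 TGCCGC and 1 TGACGTCA in 1 of 2 windows, and Grb10, whose groups overlapped, held 1 TGCCGC in 1 of 2. Mest, lower in cKO, held 2 TGCCGC in each of 2 overlapping windows and no motif in the third, and Dlk1 held none. A match is a description of the letters and not a binding site.

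Peg3, which encodes a large zinc-finger DNA-binding protein (ENSMUSG00000002265.16, mm10 chromosome 7, 6703892 to 6730431), was lower in cKO. It had 63856 and 74609 counts in controls against 55365 and 56957 in cKO, or 976 and 989 CPM against 714 and 701 CPM. The replicates lay close together within each group and the groups did not overlap. The mean went from 983 ± 9.25 to 707 ± 9.24 CPM (SD, n = 2 each), 28.0% lower, a log2 fold change of -0.47 ± 0.05 (SE).

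Usp29, which encodes a ubiquitin-specific protease and starts beside Peg3 in the window shown above (6730578 to 6967219), was far rarer than Peg3 per kilobase of exon and lower in cKO too. It had 960 and 1175 counts in controls and 586 and 660 in cKO, or 14.7 and 15.6 against 7.56 and 8.12 CPM, again with no overlap. The log2 fold change was -0.95 ± 0.12 (SE), 48.2% lower, the largest relative difference among the 10 genes. Its 95% interval ran from -1.24 to -0.66, and that of Peg3 from -0.60 to -0.35. The number of Peg3 counts per Usp29 count, which needs no scaling between libraries, was 66.5 and 63.5 in controls and 94.5 and 86.3 in cKO. In GENCODE M21, exons of Usp29 share 2582 bases with those of Zim3 on the other strand, and Zim3 is listed at 0 counts in all 4 libraries. Without a stated strand setting, reads in the shared bases cannot be assigned to one gene.

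Zim1, a zinc-finger gene on the other side of Peg3 (6671269 to 6696450), is read from the maternal copy and was lower as well. It had 4112 and 4595 counts in controls and 3290 and 2944 in cKO, or 62.9 and 60.9 against 42.4 and 36.2 CPM. The groups did not overlap, and the cKO libraries stood further apart than the controls. The log2 fold change was -0.65 ± 0.09 (SE), 36.5% lower. Peg3 counts per Zim1 count were 15.5 and 16.2 in controls and 16.8 and 19.3 in cKO. The lower level in cKO thus covered paternally and maternally expressed genes of the domain. Against control replicate 2 alone, with the high-Xist library left out, the log2 fold changes were -0.48 for Peg3, -0.99 for Usp29 and -0.63 for Zim1.

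**Figure D1:**
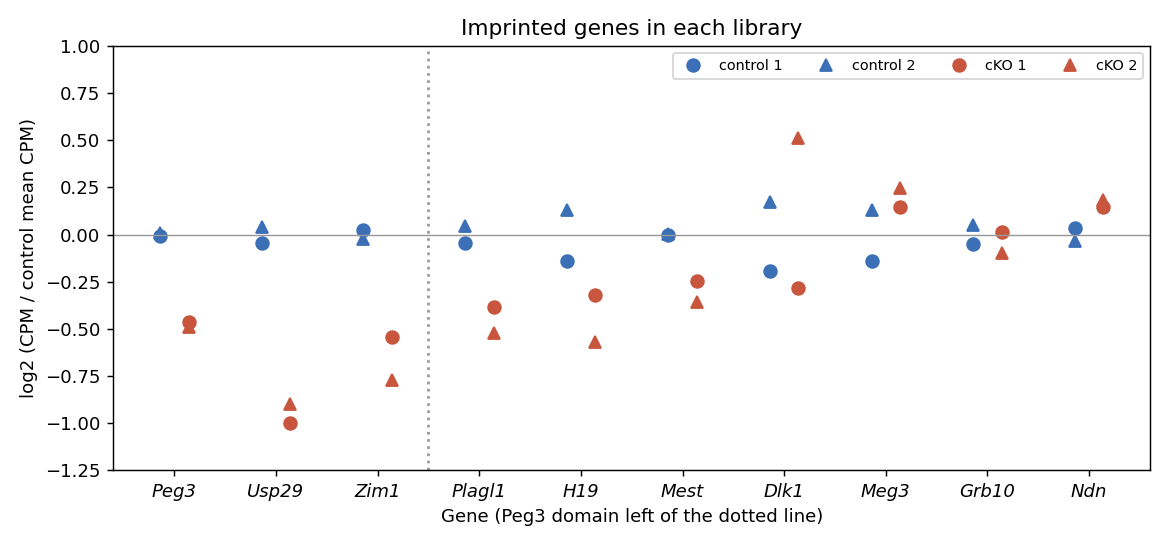
Level of each of the 10 imprinted genes in each library, as the log2 ratio of its CPM to the mean CPM of the 2 controls; circles are replicate 1 and triangles replicate 2, in blue for control and red for cKO. Both cKO libraries sit below both controls for Peg3, Usp29, Zim1, Plagl1, H19 and Mest, while Dlk1 spreads widely within cKO.

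Of the other 7 genes, 3 were also lower in both cKO libraries than in both controls, as were 24.9% of all genes tested. Plagl1 (ENSMUSG00000019817.18, chromosome 10, 13060504 to 13131694) encodes a zinc-finger transcription factor that restrains proliferation. It had 415 and 441 CPM in controls against 328 and 298 CPM in cKO, a log2 fold change of -0.45 ± 0.07 (SE). The Peg3 to Plagl1 count ratio overlapped between the groups, at 2.35 and 2.24 in controls and 2.18 and 2.35 in cKO.

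H19 (ENSMUSG00000000031.16, chromosome 7, 142575529 to 142578143), a long noncoding RNA from the maternal copy, was the most abundant of the 10 per kilobase of exon. It had 7808 and 9407 CPM in controls against 6892 and 5807 CPM in cKO, a log2 fold change of -0.44 ± 0.11 (SE). Within each group the replicates differed, control replicate 2 being 1.20 times control replicate 1. Igf2, the paternally expressed growth factor gene beside it, stood at 7272 and 8428 CPM in controls against 6512 and 6082 CPM in cKO. Both transcripts were highest in control replicate 2 and lowest in cKO replicate 2, with 1.07 and 1.12 H19 counts per Igf2 count in controls and 1.06 and 0.955 in cKO.

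Mest (ENSMUSG00000051855.15, chromosome 6, 30723547 to 30748465), a paternally expressed gene for a hydrolase-like protein, had 1563 and 1566 CPM in controls against 1319 and 1219 CPM in cKO. The controls were nearly equal and both cKO libraries lay below them, at a log2 fold change of -0.30 ± 0.06 (SE). Its exons share 912 bases with those of Copg2 on the other strand, and without a stated strand setting reads there cannot be assigned to one gene. Copg2 had 148 and 136 CPM in controls against 125 and 124 CPM in cKO.

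The remaining 4 genes were not lower in both cKO libraries. Meg3 (chromosome 12, 109541001 to 109571726), a maternally expressed long noncoding RNA, had 256 and 308 CPM in controls against 312 and 335 CPM in cKO. The groups were thus only just apart, at a log2 fold change of 0.20 ± 0.10 (SE). Without control replicate 1, the high-Xist library, the Meg3 value was 0.07, and without control replicate 2 it was 0.34. Dlk1 (109452823 to 109463336), its paternally expressed neighbour and a membrane protein that holds back adipocyte differentiation, had 15.9 and 20.5 CPM in controls against 15.0 and 26.0 CPM in cKO. Those groups overlapped, and cKO replicate 2 was 1.74 times cKO replicate 1, so the log2 fold change of 0.17 ± 0.26 (SE) was smaller than its error.

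Ndn (chromosome 7, 62346569 to 62350262), which encodes necdin, a growth-restraining protein of the MAGE family, had 51.2 and 48.9 CPM in controls against 55.4 and 56.8 CPM in cKO, a log2 fold change of 0.16 ± 0.06 (SE). Grb10 (chromosome 11, 11930508 to 12038683), an adaptor that dampens insulin and IGF receptor signalling, had 656 and 702 CPM in controls against 686 and 635 CPM in cKO. Its groups overlapped and its log2 fold change was -0.04, with a 95% interval from -0.20 to 0.12.

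The Peg3 domain and the other 7 genes had a median log2 fold change of -0.65 for the 3 and -0.04 for the 7, against 0.00214 over all 15522 genes tested. In each library, the median level of the 3 relative to that of the 7, as log2 CPM centred on the 4 libraries, was 0.38 and 0.19 in controls and -0.13 and -0.35 in cKO. The groups of libraries did not overlap in this measure. It is built from genes chosen on this contrast, so nothing is read from that separation. The difference between the medians, -0.61, became -0.30 without cKO replicate 2, where Dlk1 was at -0.28. Among the 7, Plagl1 (-0.45), H19 (-0.44) and Mest (-0.30) came nearest to the value of Peg3.

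By parental copy, of the 6 paternally expressed genes among the 10, Peg3, Usp29, Plagl1 and Mest were lower in cKO with no overlap and Ndn was higher. Of the 4 maternally expressed genes, Zim1 and H19 were lower and Meg3 higher. In all, 6 of the 10 genes were lower and 2 higher in both cKO libraries than in both controls; over all genes tested, 24.9% were lower and 24.9% higher in this way. By the edgeR quasi-likelihood test with Benjamini-Hochberg adjustment over all genes, Peg3, Usp29, Zim1 and Plagl1 passed a threshold of 0.05, as did 1.30% of all genes tested in either direction and 0.908% in the lower direction. Plagl1 passed narrowly, at an edgeR adjusted p of 0.0491, and did not pass with library sizes alone, at 0.0543. DESeq2 called 6 of the 10, against 5.85% of all genes it tested, and limma-voom 4, against 2.15%. With the replicate number as a block none of the 10 passed, and only 23 of all 15522 genes did. The genes were chosen on this contrast, so nothing is read from these counts. Leaving out 1 library keeps a single library in its group, so effect sizes alone are given for those fits. Peg3 then ran from -0.49 to -0.46, Zim1 from -0.78 to -0.54 and Plagl1 from -0.52 to -0.38, and Usp29 stayed lower in cKO too.

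**Figure D2:**
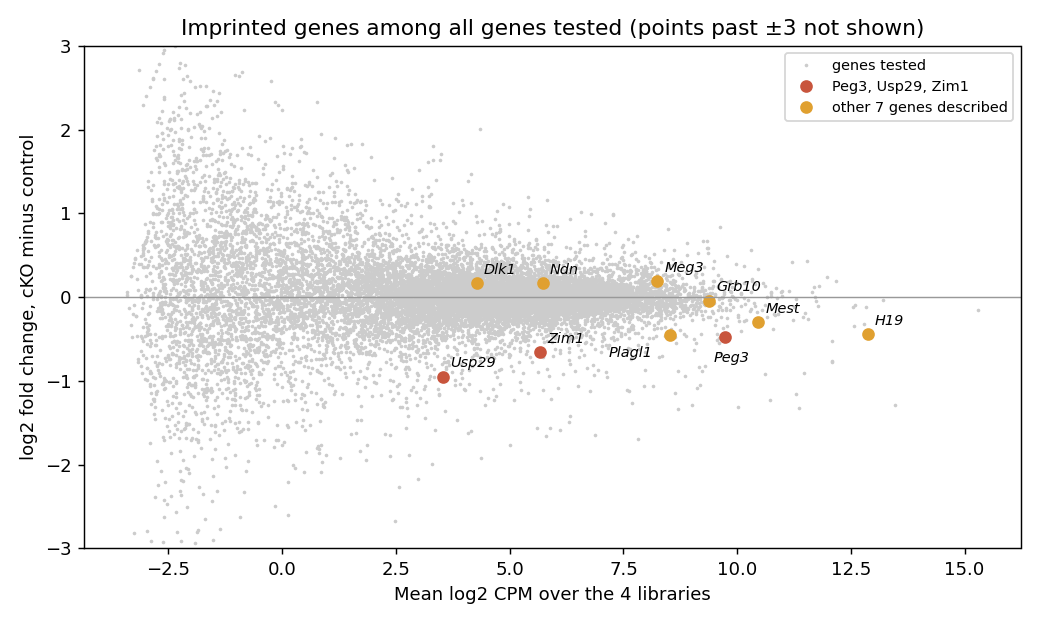
Log2 fold change (cKO minus control) against mean log2 CPM over the 4 libraries for the genes tested, in grey, with the 10 imprinted genes in colour. Usp29 at -0.95 and Zim1 at -0.65 lie at lower mean log2 CPM than Peg3 at -0.47, and H19 lies farthest to the right of the 10.

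The summed markers of several cell types differed between genotypes in the same libraries. For the counts below, 24.9% of all genes tested were lower and 24.9% higher in both cKO libraries than in both controls. Of the genes each tool tested, 1.30% passed by edgeR, 5.85% by DESeq2 and 2.15% by limma-voom. An unadjusted edgeR p under 0.05 was reached by 17.2%. All 10 chondrocyte markers were lower in both cKO libraries than in both controls, as were 24.9% of all genes, and 9 passed the edgeR test. Fibroblast markers summed to 5238 and 5217 CPM in controls against 6963 and 7634 CPM in cKO, with 7 of 8 higher in both cKO libraries, as were 24.9% of all genes, and 3 past the edgeR test. Adipocyte markers summed to 105 and 98.1 CPM in controls against 144 and 242 CPM in cKO, with 4 of 8 higher and Lep at 0. Of the 7 adipocyte markers tested, 0 passed by edgeR or limma-voom and 3 by DESeq2, and 4 had an unadjusted edgeR p under 0.05. Skeletal muscle markers ranged from 4.85 to 71.1 CPM with overlapping groups, macrophage markers from 10.9 to 16.3 CPM and endothelial markers up to 0.968 CPM, with Emcn at 0. The 4 Schwann cell markers summed to 163 and 192 CPM in controls against 115 and 86.4 CPM in cKO, with 2 lower and 1 higher without overlap and Sox10, which defines those cells, at 0. Of the 3 tested, 0 passed by edgeR, 2 by DESeq2 and 1 by limma-voom, and 2 had an unadjusted edgeR p under 0.05. Globin genes, 4 of the 6 erythroid markers, were at 0. The part of these shifts in the values of the imprinted genes was not tested, and in bulk RNA fewer cells of a type cannot be told apart from less RNA per cell.

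Levels between genes are compared per kilobase of annotated exon (GENCODE M21, all isoforms merged), since longer genes collect more counts. In controls H19 was highest, at 3499 ± 460 CPM per kilobase (SD, n = 2), followed by Mest at 397 ± 0.695. Grb10 (74.7 ± 3.57) and Peg3 (73.8 ± 0.694) did not differ beyond their spread, and Plagl1 followed at 54.7 ± 2.42. Meg3 (15.6 ± 2.04) and Ndn (13.6 ± 0.434) lay within about the spread of Meg3, then came Zim1 at 7.66 ± 0.169 and Dlk1 at 3.22 ± 0.571. Usp29 was lowest at 0.837 ± 0.0354. The order was the same in cKO, where Grb10, at 72.7 ± 4.02, lay above Peg3, at 53.1 ± 0.693, by more than the spread of either. Usp29 and Meg3 have the longest merged exons, with 18078 and 18089 bases.

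The 12 tested genes outside the imprinted lists within 1 Mb of the domain, which the choice of the 10 genes did not use, gave no call. The count was 0 by edgeR, by DESeq2 and by limma-voom, and none had an unadjusted edgeR p under 0.05, as 17.2% of all genes did. All but Vmn2r29 and the chloride channel gene Clcn4 are zinc-finger genes named Zfp. Their log2 fold changes ran from -0.18 for Zfp28 to 0.47 for Zfp773, a gene at 0.538 CPM in controls, with a median of -0.02. Clcn4, the one with the most counts, had 96.5 and 94.7 CPM in controls against 94.5 and 92.5 CPM in cKO, with a 95% interval from -0.16 to 0.10. Zfp787 was at -0.14 ± 0.12 (SE) and Vmn2r29, a vomeronasal receptor gene, at 0.38 ± 0.30 (SE). For 7 of the 12 the groups overlapped, as they did for 7796 of the 15522 genes tested. Several of these genes are rare, so that their intervals reach past the -0.47 of Peg3.

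**Figure D3:**
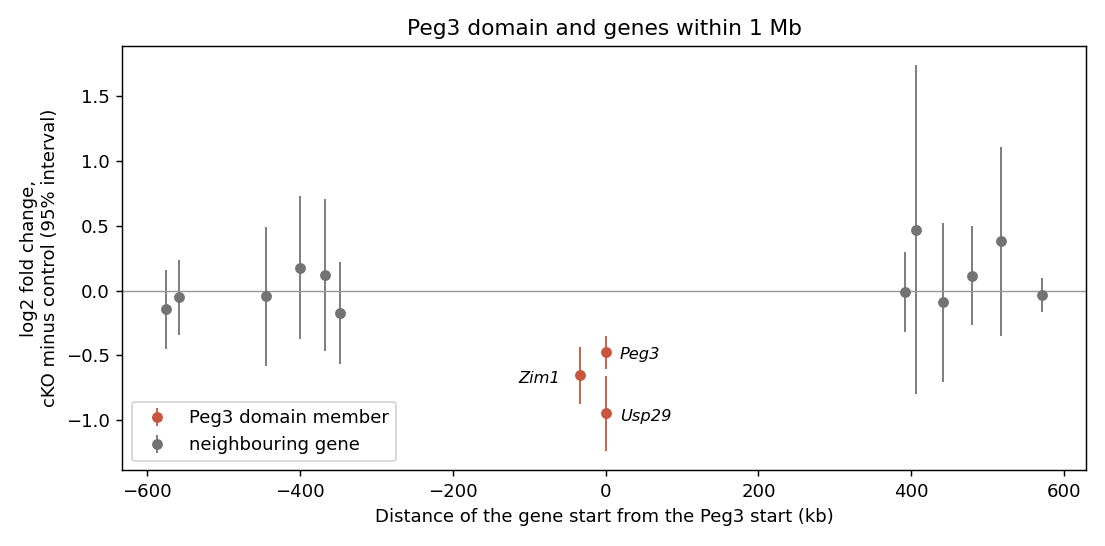
Log2 fold change (cKO minus control) with its 95% interval against the distance of each gene's start from the start of Peg3, for Peg3, Usp29 and Zim1 in red and 12 neighbouring genes in grey. The 3 domain genes lie at -0.47 to -0.95, and the neighbours, the nearest starts being at -347 and 391 kb, lie between -0.18 and 0.47.

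Beyond the 10 genes, a list of 52 imprinted genes was examined, of which 44 were tested. It leaves out the 10 genes chosen on this contrast, of which 4 passed by edgeR. Its shares therefore do not describe imprinted genes as a whole. By edgeR 0 passed, against 1.30% of all genes, and 8 of the 44 reached an unadjusted p under 0.05 (2 higher and 6 lower), a share near the 17.2% of all genes. DESeq2 called 2 of the 47 it tested, against 5.85% of all genes, and limma-voom 0, against 2.15%. The median log2 fold change was 0.03, with 26 above and 18 below 0. At the Peg3 domain itself Zim2 and Zim3 are listed at 0 counts in all libraries, and the symbol Zfp264 is absent from the counts. Of the 33 listed genes whose mean log2 CPM reached 1, 30 had a log2 fold change within 0.5 of 0 in either direction.

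DESeq2 called Igf2 lower and Slc38a4 higher. Igf2 had a log2 fold change of -0.32 ± 0.08 (SE), with an edgeR adjusted p of 0.116 and a DESeq2 adjusted p of 0.00416. With 1 library left out, its log2 fold change ran from -0.42 without control replicate 1 to -0.21 without control replicate 2. Slc38a4, an amino acid transporter read from the paternal copy, had 15.3 and 17.1 CPM in controls against 20.4 and 34.3 CPM in cKO, a log2 fold change of 0.76 ± 0.23 (SE). Its adjusted p was 0.177 by edgeR and 0.0198 by DESeq2. Without cKO replicate 1 its log2 fold change was 1.08. Its high value rested on cKO replicate 2, without which the log2 fold change was 0.34.

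The next genes by p-value did not pass in any of these tools. Ascl2, a transcription factor gene of the Kcnq1 domain, had 110 and 229 counts in controls and 78 and 76 in cKO (log2 fold change -1.28, edgeR adjusted p = 0.183). Magel2, a neighbour of Ndn in the Snrpn domain, had 53 and 37 counts in controls and 3 and 12 in cKO (-2.77, edgeR adjusted p = 0.195), at a low level of 0.810 and 0.491 CPM in controls. Peg10 (-0.20) and Sgce (0.23), paternally expressed genes of 1 domain, differed in sign, with edgeR adjusted p-values of 0.244 and 0.246. H13, a signal peptide peptidase, was at -0.14 (0.260) and Copg2 at -0.18 (0.195). Cdkn1c, the maternally expressed cell cycle inhibitor, had 173 CPM in each control and 162 and 193 CPM in cKO, at 0.03 ± 0.09 (SE).

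**Figure D4:**
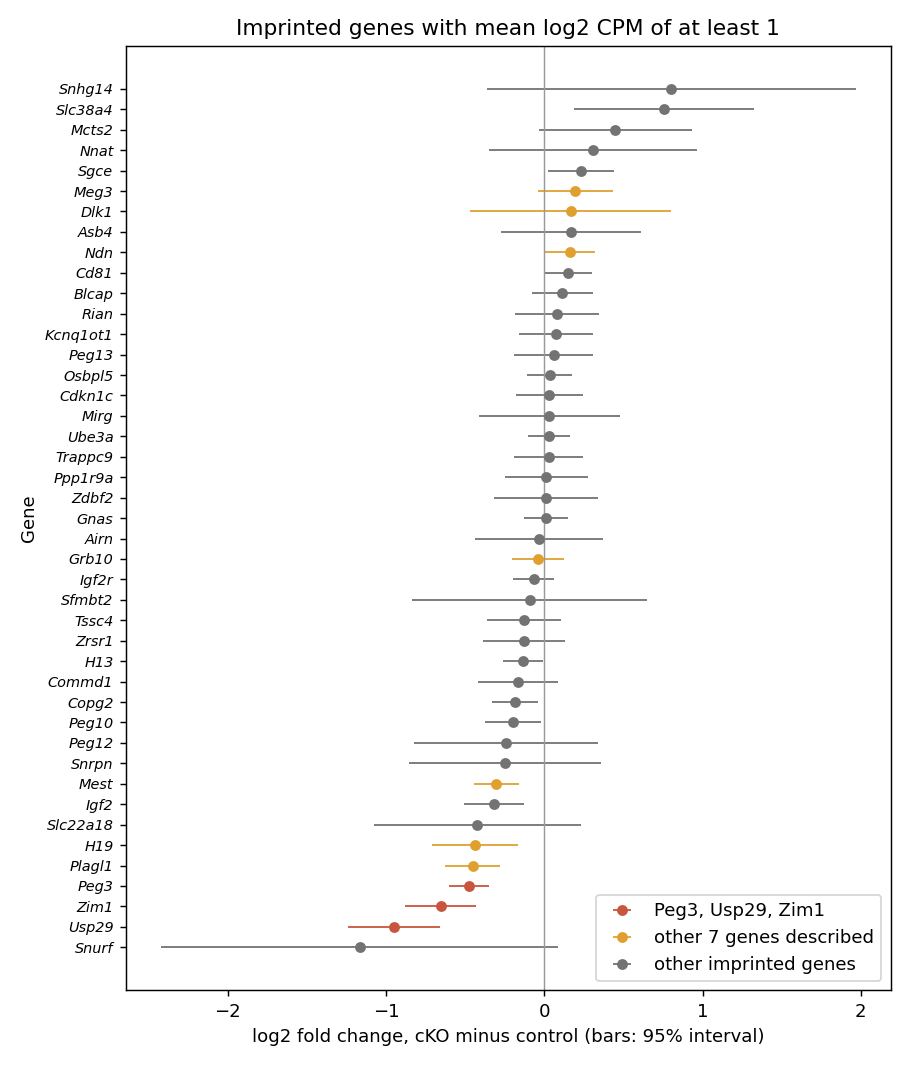
Log2 fold change (cKO minus control) with 95% interval for the imprinted genes whose mean log2 CPM is at least 1, ordered by value; Peg3, Usp29 and Zim1 in red, the other 7 genes described in yellow and 33 further imprinted genes in grey. Most grey points lie within 0.5 of 0, and Usp29 and Zim1 are the lowest values apart from Snurf, whose interval crosses 0. The red and yellow genes were chosen on this contrast, and the grey ones are listed genes left after that choice.

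Genes that place, keep or remove imprints were read from a list of 20, of which 19 were tested. By edgeR 0 passed, against 1.30% of all genes, and 1 reached an unadjusted p under 0.05, against 17.2%. DESeq2 and limma-voom each called that gene, Tet1, as 1 of 19, against 5.85% of all genes by DESeq2 and 2.15% by limma-voom. Tet1, an enzyme that starts the removal of DNA methylation, had 17.2 and 17.0 CPM in controls against 11.0 and 11.1 CPM in cKO, a log2 fold change of -0.63 ± 0.10 (SE). Its adjusted p was 0.0510 by edgeR, 0.00174 by DESeq2 and 0.0490 by limma-voom. With 1 library left out, its log2 fold change ran from -0.63 to -0.62. Trim28, the co-repressor that acts at imprints, was at 0.02 ± 0.06 (SE), Yy1 at -0.01, and Dnmt1, the maintenance methyltransferase, at -0.10. Ctcf, the insulator protein, was at 0.13, Hells, a chromatin remodeller, at -0.22, and Tet2 at -0.14. Zfp57, the imprint-binding zinc-finger gene, was rare, at 6.45 and 5.40 CPM in controls against 4.33 and 5.07 CPM in cKO (-0.33 ± 0.20, SE). The edgeR adjusted p-values of these 7 lay between 0.351 for Hells and 0.946 for Yy1.

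The 5 genes whose profile over the 4 libraries was most like that of Peg3 came from 12128 candidates, by the Euclidean distance of centred log2 CPM. They were Dnajb9, a chaperone partner of the endoplasmic reticulum (distance 0.0192), Emilin1, an elastic fibre glycoprotein (0.0376), Sdr39u1 (0.0408), Lif, a cytokine (0.0428), and Tmem97 (0.0453). Their log2 fold changes ran from -0.50 for Emilin1 to -0.46 for Tmem97. Of the other 9 imprinted genes described, Plagl1 was nearest to Peg3, at 0.0941 with 49 candidate genes closer, followed by Mest at 0.183 with 288 closer. Zim1 (0.237) and H19 (0.238) had 580 and 585 closer. Grb10 was at 0.441, and Usp29, of the Peg3 domain, at 0.486 with 5431 genes closer. Ndn, Meg3 and Dlk1 lay farther away, at 0.643 to 0.871. The distance counts the size of a difference as well as its direction, so it does not rank likeness of pattern alone. Centred log2 CPM of Usp29 were 0.43 and 0.52 in controls and -0.53 and -0.42 in cKO. Those of Peg3 were 0.23 and 0.25 against -0.22 and -0.25, and those of Grb10 -0.03 and 0.07 against 0.04 and -0.08. The likeness uses the same 4 libraries and so the contrast on which the 10 genes were chosen.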

How the data were processed

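RNA of 4 chondrocyte libraries, 2 control and 2 cKO, was counted per gene. The authors deposited unscaled counts, as whole numbers per gene symbol. Per the submitters' processing notes, HISAT2 2.2.1, StringTie 2.1.7, FastQC 0.11.9 and Trim Galore 0.6.7 were used with build mm10, in roles not stated. For the counting tool, strand setting and annotation, nothing is given in the sources used here. The extraction protocol in the labels describes no strand-marking step and no molecular identifiers. Groups follow the sample titles. Members and gene lists were chosen with earlier results of these data known.

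Genes were kept by filterByExpr (minimum count 10) in edgeR 4.0.16 (R 4.3.3), scaled by TMM and tested with glmQLFit and glmQLFTest without covariates, with Benjamini-Hochberg adjustment. CPM use TMM-scaled library sizes, and marker sums the plain ones. Standard errors were taken as |log2 fold change| divided by √F. The procedure was tested on simulated counts. Positions and exon lengths are from GENCODE M21 and promoter sequences from RefSeq, GRCm38.p6. Alternatives were DESeq2 1.42.0, limma-voom (limma 3.58.1), other scaling and filters, a replicate block and leaving out each library. Genes were named as follows: all 10 members, the 8 other imprinted genes, 4 imprint regulators and 4 neighbours with the smallest p, all called ones, a few chosen by role, and the 5 nearest to Peg3. Of genes with 1 to 20 counts, 30.0% to 32.0% had a multiple of 4, against 25% for even spread, so counts divided by 4 were tried.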

Additional observations from a re-analysis of the deposited data

How the results depend on the processing

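Of 110 log2 fold changes of the 10 genes under the alternatives, 100 stayed within the spread between replicates, 5 moved by more and 5 changed sign. The latter were Grb10, at 0.0235 with library sizes alone, 0.00881 without control replicate 2 and 0.0155 without cKO replicate 2 (range -0.10 to 0.02 with 1 library left out), and Dlk1, at -0.00127 when control replicate 1 was left out and -0.28 when cKO replicate 2 was (range -0.28 to 0.51). Those that moved by more were Peg3 (-0.41), Mest (-0.24) and Ndn (0.23) with library sizes alone. Zim1 (-0.78) and Mest (-0.36) did so without cKO replicate 1. Peg3, Usp29, Zim1, Plagl1, H19 and Mest stayed below 0 and Meg3 and Ndn above 0 in all alternatives, which reuse the same libraries. Library sizes alone moved the median of all genes up by 0.0648, and the 202 calls (61 higher, 141 lower) became 239 (116 higher, 123 lower). DESeq2 called 1082 genes, limma-voom 333, counts divided by 4 gave 371, and leaving out 1 library gave 5 to 782. With the replicate number as a block 23 were called; same-numbered libraries deviated with a correlation of -0.122, and nothing in the labels pairs them. The crossed pairing, added after seeing the data, gave 564. Among the other imprinted genes DESeq2 called 2 of 47 tested. Among the imprint regulators DESeq2, limma-voom, a minimum count of 50 and counts divided by 4 each called 1. The Peg3 domain median minus that of the other 7 genes ranged from -0.69 to -0.30 when 1 library was left out, the latter without cKO replicate 2. The cause of these changes was not tested. With 2 libraries a group, intervals were wide for genes under 1 CPM, from -4.97 to -0.58 for Magel2 and from -0.80 to 1.74 for Zfp773.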
